A study of Homo sapiens with 16 samples.

Results

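The genes described here encode the subunits of the oxidative phosphorylation system, the 5 protein complexes of the inner mitochondrial membrane. They were chosen by gene name from a table of 14857 genes: the mitochondrial protein genes (MT-ND, MT-CO, MT-CYB and MT-ATP), and the nuclear genes named NDUFA, NDUFB, NDUFC, NDUFS or NDUFV, SDHA to SDHD, UQCR, COX4 to COX8, and ATP5. Of 99 matching names, 3 were pseudogenes and were left out. Of the other 96, 93 were protein-coding and 3 were antisense RNA genes, which are described apart. The mitochondrial genome encodes 13 of the 93 and the nuclear genome 80. By complex there were 43 genes of complex I, 4 of complex II, 10 of complex III, 15 of complex IV and 21 of complex V. Those of complex V include ATP5IF1, an inhibitor, and ATP5S, a coupling factor, which are counted with the subunit genes by name only. The isoform genes COX4I2, COX6A2, COX6B2, COX7A1 and NDUFA4L2 were not analysed here.

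The libraries came from MDA-MB-231, a human triple-negative breast cancer line, engineered with a tet-off system in which doxycycline keeps the introduced gene silent. The study asked what changes across the transcriptome when tristetraprolin (TTP, the product of ZFP36) is expressed again in these cells. TTP is an RNA-binding protein that recognises AU-rich elements in 3′ UTRs and promotes decay of the mRNA. Each of 4 stable clones gave 4 libraries: EV_A and EV_B carried an empty vector, and TTP_E11 and TTP_H3 carried TTP. Growth medium of every clone held G418 and hygromycin B for selection. Doxycycline at 2 µg/mL is stated in the labels only for the cells with TTP, and was washed out with the selection drugs for at least 24 h before the experiments. Each arm therefore rests on 2 clones, and each line is 1 clone, so that TTP, past doxycycline and differences between clones cannot be told apart within the design. The p-values thus rest on how cultures of the same clone varied, not on how clones varied.

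Oxidative phosphorylation passes electrons from NADH through complex I, or from succinate through complex II, to coenzyme Q, then through complex III and cytochrome c to complex IV, which reduces oxygen. Complexes I, III and IV pump protons as electrons pass, and complex V, the ATP synthase, uses the proton gradient to make ATP. All of these except complex II are built from subunits of both genomes. The mitochondrial genes are transcribed as long precursors from each strand of the circular genome and cut into single mRNAs, whereas each nuclear gene has a promoter of its own.

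Reads on the listed genes ranged from 14380767 to 22066098 per library. ZFP36 was between 213 and 282 normalized counts in the 8 EV libraries and between 10160 and 15041 in the 8 TTP libraries, although the titles of 7 TTP libraries say EV. Samples were grouped by library name. The markers VIM, CD44, MSN, CAV1 and EGFR, which the line is known for, were all listed, and their summed mean level was 88713 and 83952 normalized counts in EV_A and EV_B, against 66261 and 63840 in TTP_E11 and TTP_H3. Of 5 genes known to be low or absent in the line, ESR1 and PGR were not listed, while ERBB2, EPCAM and GATA3 were, at means of 2514, 262 and 200.1 normalized counts and with clone sums between 2632 and 3302. Of the immune markers CD14 and CD68 were listed, 2 of 4, with clone sums between 36.7 and 50.6, PTPRC and CD3E were not, and neither were the endothelial PECAM1 and CDH5. Both fibroblast markers, COL1A1 and PDGFRB, were listed, with sums between 342 and 522. The part of other cells in the results was not tested. In bulk RNA, fewer cells of a type and less RNA per cell cannot be told apart.

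Since TTP binds AU-rich elements, the letters TATTTAT were searched on the sense strand in the 3′ UTR of the principal GENCODE 29 transcript of each nuclear member. Where a gene had several, that with the longest coding sequence was taken, and in ties the longest transcript. Whether that form is expressed in these cells was not tested. The letters were present in 11 of 80 members, 13.8%, against 32.7% of the 12484 listed coding genes with a 3′ UTR. The members' 3′ UTRs were short, with a median of 222 nt against 1100 nt. The runs below show the heptamer in capitals with its neighbours, for members lower in the TTP arm (COX7A2, NDUFS4 and NDUFS1) and higher in it (NDUFA10, NDUFA9, UQCRC2, ATP5F1A and COX7B), so that the sites can be set beside the directions. Coordinates are GRCh38.
COX7A2 3′ UTR (chr6:75237819-75237845, minus strand): tggggatcaaTATTTATtgacttgtag
NDUFS4 3′ UTR (chr5:53683263-53683289, plus strand): agctgtgcagTATTTATagtccatgta
NDUFS1 3′ UTR (chr2:206121020-206121046, minus strand): tcaaataactTATTTATggctacacag
NDUFS1 3′ UTR, second site (chr2:206117024-206117050, minus strand): cactaattttTATTTATttattttttt
NDUFA10 3′ UTR (chr2:239960583-239960609, minus strand): aggcctactgTATTTATtttagtaatg
NDUFA9 3′ UTR (chr12:4687324-4687350, plus strand): atatatatacTATTTATtctctgaaat
UQCRC2 3′ UTR (chr16:21983378-21983404, plus strand): aatcaacaagTATTTATtatgtgctga
ATP5F1A 3′ UTR (chr18:46082744-46082770, minus strand): cctactgattTATTTATttacttttaa
COX7B 3′ UTR (chrX:77906249-77906275, plus strand): ctctcatttgTATTTATacctggaatt
In the second NDUFS1 run a further copy, at position 7149 of the 3′ UTR, overlaps the marked copy at 7145. The ATP5F1A run is site 2 of the 4 in that gene. A match is a description of these letters, and binding was not measured here.

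In the comparison of both TTP clones with both EV clones, 45 of the 93 subunit genes rose and 23 fell past the limma threshold, an adjusted p under 0.05. This is 73.1% of the members, against 70.0% of all 14857 genes, so the share called was near that of the whole table. Changes were small: 57 of the 68 called members differed by under 0.3 on the log2 scale, and only NDUFS1 passed 1.5-fold. The median log2 change was 0.15 for the 13 mitochondrial genes, 0.05 for the 80 nuclear genes and 0.00 for all genes. Of the mitochondrial genes 8 rose and 0 fell in limma, with 0 lower also at an unadjusted p under 0.05 and by edgeR and DESeq2, while 37 nuclear genes rose and 23 fell. The balance of directions depends on scaling. With all libraries set to the same total, which moved the median of all genes by 0.08, 60 members were higher and 15 lower, and after quantile normalization 54 were higher and 18 lower.

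A stricter reading asks for a limma adjusted p under 0.05 with the same sign whenever either TTP clone is set against either EV clone, 4 contrasts in all. By it 17 members were higher and 15 lower, 34.4% of the 93, beside 38.5% of all genes. Only 2 of these 32 were mitochondrial, MT-ND2 and MT-ND3. When the reads of each clone were added up, leaving 2 samples per arm, edgeR called 18 members, 10 higher and 8 lower, beside 29.4% of all genes, a share above that of the members. The lower ones were NDUFS1, NDUFB5, NDUFA5, NDUFB4, NDUFB3, UQCRFS1, SDHD and ATP5IF1, and the higher ones NDUFB9, NDUFV1, NDUFB11, NDUFS5, NDUFS7, NDUFA10, NDUFA11, NDUFV3, ATP5MC2 and MT-ND3. Values of the 8 TTP libraries did not overlap those of the 8 EV libraries for 2 of the 13 mitochondrial genes and for 20 of the 80 nuclear ones (10 above and 10 below), where 31.8% of all genes had no overlap.

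**Figure D1:**
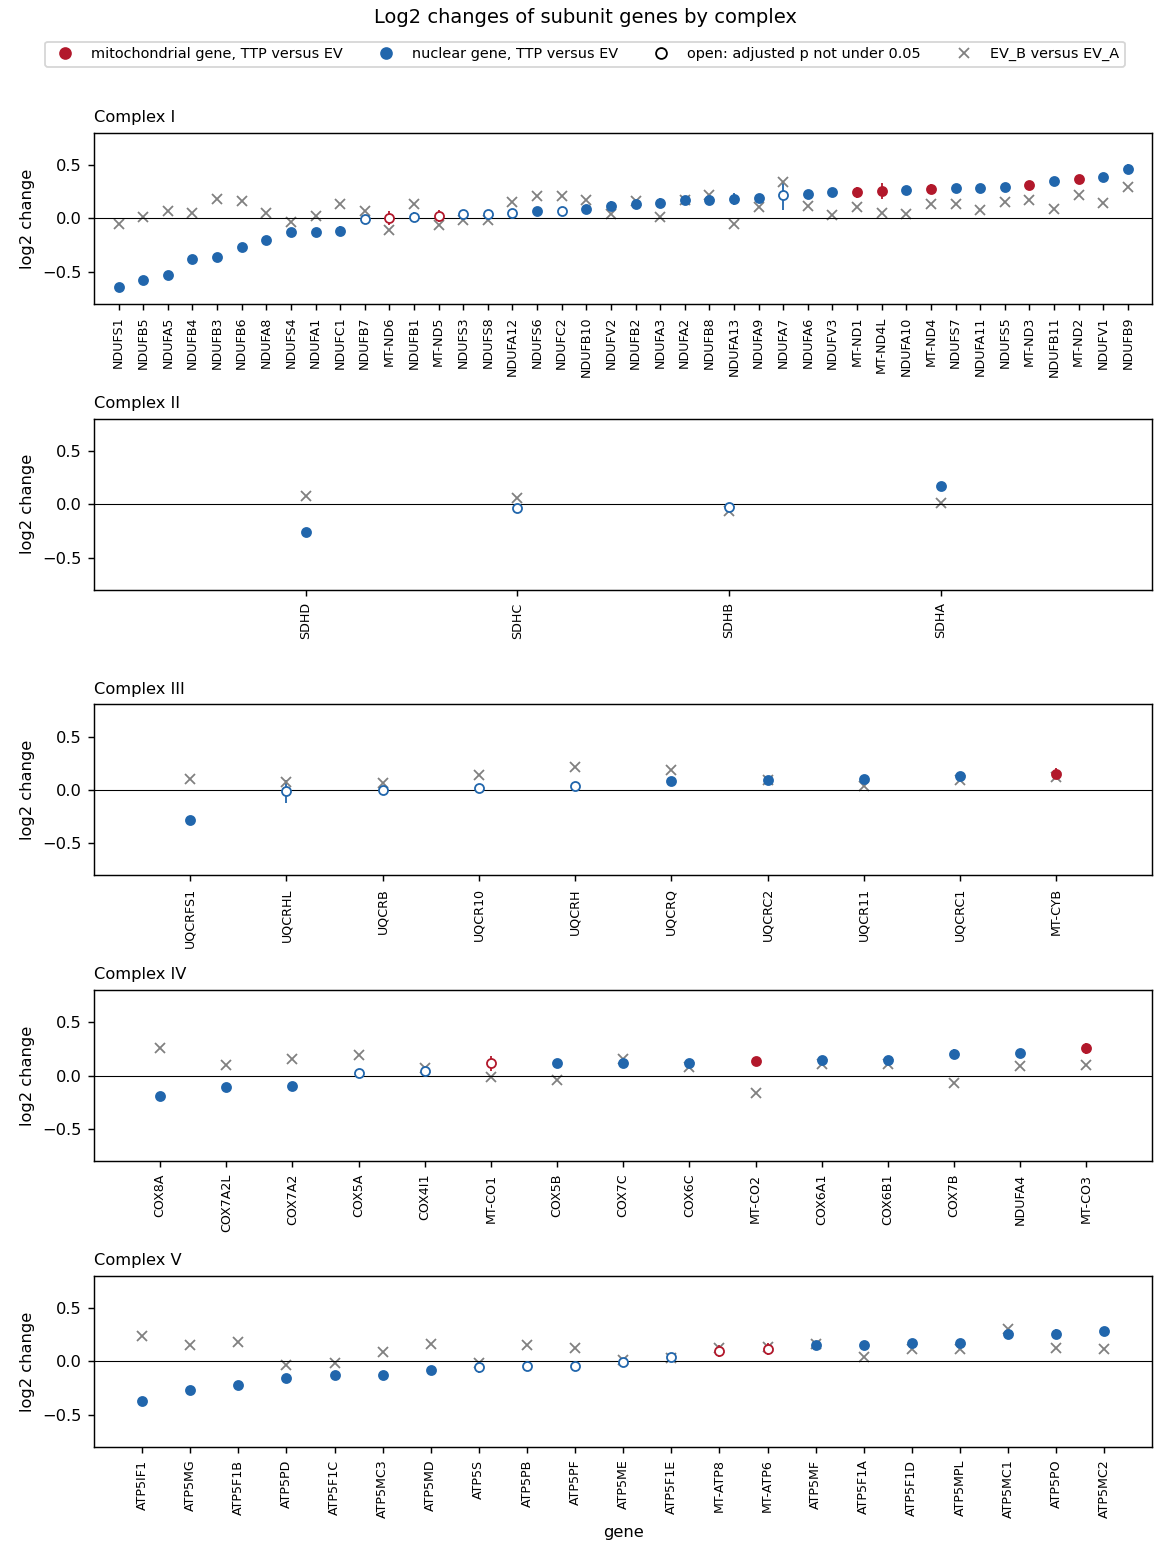
Log2 change of each subunit gene, except 1 of complex I, in TTP versus EV (circles, with the standard error of the limma fit, filled where the adjusted p was under 0.05) and in EV_B versus EV_A (grey crosses), by complex. In each complex the nuclear genes (blue) lie on both sides of 0, from -0.64 for NDUFS1 to 0.47 for NDUFB9, while the mitochondrial genes (red) lie between 0.00 and 0.37.

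The mitochondrially encoded mRNAs drew more reads than the nuclear subunit genes together in every library. They took 3.55%, 3.87%, 3.55% and 3.53% of the reads on listed genes in EV_A, 3.70%, 3.69%, 3.93% and 3.49% in EV_B, 4.56%, 4.60%, 4.59% and 4.56% in TTP_E11, and 3.76%, 3.97%, 4.80% and 4.65% in TTP_H3. All 4 TTP_E11 libraries lay above every EV library. TTP_H3 was split, with replicate 1 inside the EV range, replicate 2 just above it, and replicates 3 and 4 above TTP_E11. The nuclear members together took between 0.723% and 0.749% in EV_A, 0.763% and 0.793% in EV_B, 0.791% and 0.832% in TTP_E11, and 0.802% and 0.844% in TTP_H3. On normalized counts, their sum was 140684 ± 2965 (SD, n = 4) in EV_A and 150902 ± 2622 in EV_B, beside 147349 ± 4051 for TTP_E11 and 148520 ± 3316 for TTP_H3, so EV_B was the highest clone on that scale and the TTP clones were highest as shares of reads. The labels do not say whether mRNA was selected by its poly(A) tail, which sets how well mitochondrial mRNAs are captured, and its part in these shares was not tested.

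**Figure D2:**
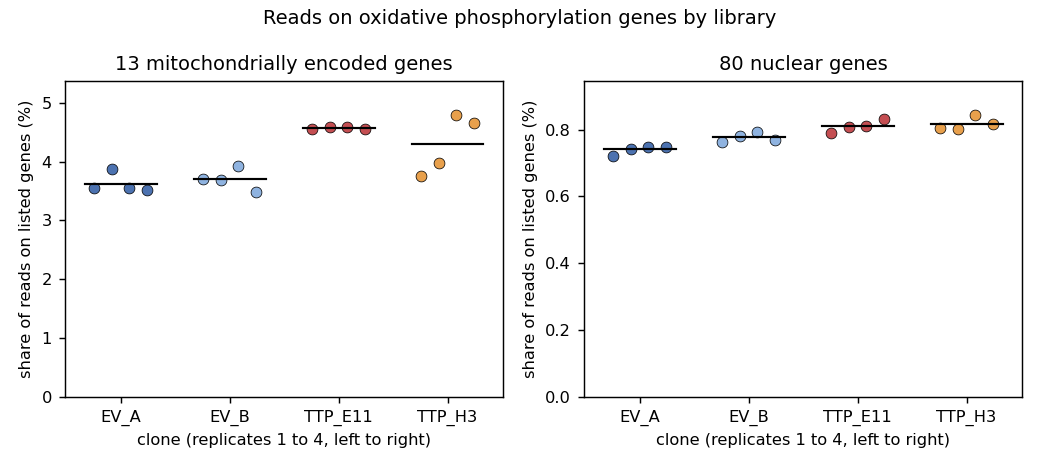
Share of the reads on listed genes (percent, axes from 0) that fell on the 13 mitochondrial genes (left) and the 80 nuclear genes (right), 1 point per library with the clone mean as a line. TTP_E11 lies between 4.56% and 4.60% for the mitochondrial genes, and TTP_H3 spreads from 3.76% to 4.80%.

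Per kilobase of exon, the mean normalized count of a mitochondrial gene over the 16 libraries ran from 18030 for MT-ND5 to 127075 for MT-ATP6, with a median of 67820. The nuclear members had a median of 583 and ran from 27.5 for NDUFA7 to 6036 for COX8A, so the lowest mitochondrial gene stood above the highest nuclear one. These lengths are unions of all annotated exons and understate genes with long rare isoforms. Among the nuclear genes the median per kilobase was 324 for complex I, 542 for complex II, 620 for complex III, 1048 for complex IV and 834 for complex V.

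MT-ND2 and MT-ND3, both membrane subunits of the proton-pumping arm of complex I, changed most among the mitochondrial genes. MT-ND2 (chrM:4470-5511) was at 56849, 60765, 55615 and 55409 normalized counts in EV_A and at 66013, 64398, 69947 and 65624 in EV_B. It was at 80372, 82280, 81312 and 82511 in TTP_E11 and at 74274, 73877, 79655 and 81786 in TTP_H3. Every TTP library was above every EV library, and the log2 change was 0.37 with an SE of 0.02 (limma adjusted p = 1.78e-14). MT-ND3 averaged 13090 ± 534 in EV_A and 14793 ± 592 in EV_B, and 17137 ± 547 and 17553 ± 700 (SD, n = 4) in the TTP clones E11 and H3, a log2 change of 0.32. Both genes also differed between the EV clones, by 0.22 and 0.18 in favour of EV_B. With reads summed per clone the adjusted p in edgeR was 0.053 for MT-ND2 and 0.0474 for MT-ND3.

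The other called complex I genes of this genome were MT-ND4 (0.28 on the log2 scale), MT-ND4L (0.26) and MT-ND1 (0.25). MT-ND4 and MT-ND4L overlap by 7 nt on the same strand, and the labels do not say how reads in the overlap were counted. MT-ND5 had a log2 difference of 0.02 with an SE of 0.06 (limma adjusted p = 0.751). MT-ND6, the only protein gene read from the other strand, was at 10827, 11961, 10812 and 10314 in EV_A, 10198, 10561, 10483 and 9524 in EV_B, 10600, 10155, 10129 and 10145 in TTP_E11, and 9041, 10359, 12450 and 12324 in TTP_H3. Its arms overlapped, and its log2 change was 0.00 with an SE of 0.06. The spread for MT-ND6 came mostly from TTP_H3, which held both the lowest and the highest library. The sources used here do not say whether reads of the strands were kept apart.

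MT-CYB, the cytochrome b of complex III, was higher by 0.15 (limma adjusted p = 0.0185). Its change was 0.11 (limma adjusted p = 0.0617) without EV_B replicate 4 and TTP_H3 replicate 3, libraries chosen after seeing the data. Against EV_B alone it was 0.09 (limma adjusted p = 0.240). In complex IV, MT-CO3 rose by 0.26 and MT-CO2 by 0.14, whereas MT-CO1, the haem and copper subunit that binds oxygen, had a difference of 0.12 with an SE of 0.07 (limma adjusted p = 0.162). MT-CO1 shows the split of TTP_H3 plainly: 129117, 138734, 190683 and 171338 normalized counts, against 159019 to 162720 in TTP_E11 and 133463 to 156478 over the EV libraries. Its lowest and highest values were both in TTP_H3. The membrane subunits of ATP synthase, MT-ATP6 and MT-ATP8, overlap each other by 46 nt and had differences of 0.11 and 0.10 (limma adjusted p = 0.0764 and 0.161). Without TTP_H3 replicate 1, all 3 of MT-CO1, MT-ATP6 and MT-ATP8 passed the threshold, at 0.16, 0.15 and 0.14, as did the nuclear COX4I1 at 0.06.

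Taken clone by clone, 10 of the 13 mitochondrial genes rose in TTP_E11, where 64.6% of all genes were called, and 5 in TTP_H3, where 64.7% were, with medians of 0.22 and 0.09. These comparisons share the EV libraries. The direct comparison of TTP_H3 with TTP_E11 called 11.7% of all genes and 0 of the 13 in limma (4 lower at an unadjusted p under 0.05) and 1, lower in TTP_H3, by edgeR and by DESeq2. The median difference was -0.11, and the range within TTP_H3 was wide for most of them.

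**Figure D3:**
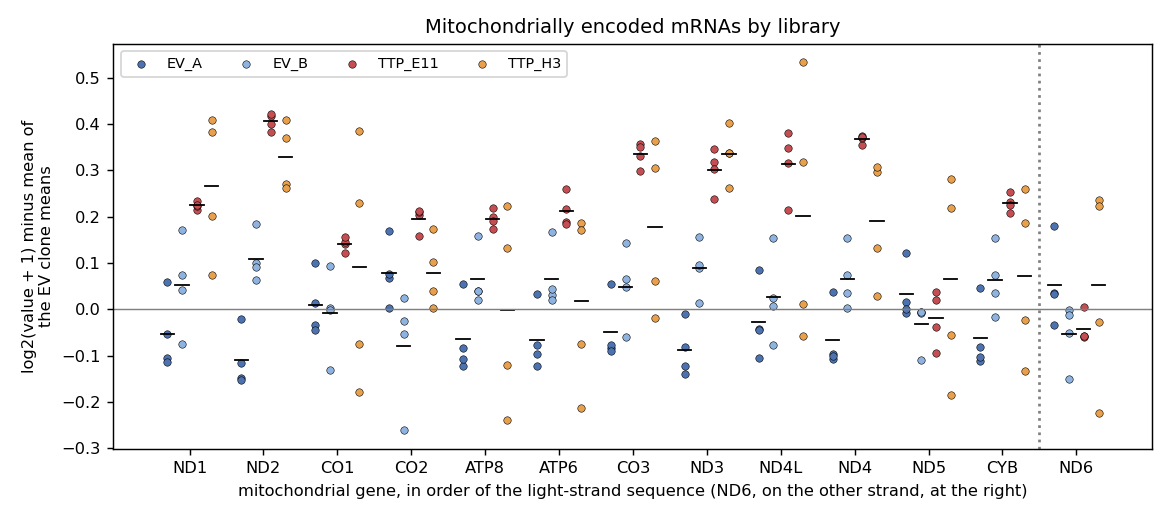
Level of each mitochondrial mRNA in every library as log2(value + 1) minus the mean of the EV_A and EV_B clone means, with black lines at clone means. ND2 and ND3 are above all EV libraries in every TTP library, for ND5 and ND6 the TTP and EV libraries overlap, and TTP_H3 (orange) spreads widest for most genes.

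Complex I, the NADH dehydrogenase, had the largest changes in both directions, and also the most genes, 43 of the 93. Its 36 nuclear genes had a median change of 0.08, with 18 higher and 11 lower. Of all genes 70.0% were called in this comparison, 5261 higher and 5144 lower. The genes of the N module, the peripheral part that takes electrons from NADH, went both ways: 6 of 10 rose and 2 fell. NDUFS1, its large iron-sulfur subunit (chr2:206114817-206159603), was at 1883, 1964, 2115 and 1967 normalized counts in EV_A, 1807, 1971, 1984 and 1892 in EV_B, 1201, 1254, 1274 and 1277 in TTP_E11, and 1221, 1239, 1305 and 1223 in TTP_H3. All TTP libraries were below all EV libraries, the arm mean fell by 35.9%, and the log2 change was -0.64 with an SE of 0.03 (limma adjusted p = 9.05e-19). The EV clones differed by -0.05 and the TTP clones by -0.01. NDUFS1 carries 3 copies of TATTTAT in a 3′ UTR of 9368 nt. Exons of EEF1B2 on the other strand overlap it, and reads of the pair may not have been separated.

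NDUFV1 binds NADH and the flavin at the entry point of the same module and moved the other way. It was at 3119, 3106, 3063 and 3159 in EV_A, 3362, 3519, 3347 and 3505 in EV_B, 4277, 4286, 4263 and 4591 in TTP_E11, and 4214, 4287, 4290 and 4074 in TTP_H3. The TTP libraries all lay above the EV libraries, 31.0% higher by arm mean, a log2 change of 0.39 with an SE of 0.02. NDUFV2, its iron-sulfur partner, rose by 0.11 (limma adjusted p = 0.026), from 410 ± 13.8 and 422 ± 4.28 with the empty vector to 452 ± 46.4 and 452 ± 16.1 (SD, n = 4). NDUFS4, an accessory subunit of this module with a heptamer at position 52 of its 119 nt 3′ UTR, fell by 0.13.

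In the Q module, where electrons reach coenzyme Q, the accessory subunit NDUFA5 fell by 0.53, from clone means of 880 ± 24.9 and 923 ± 34.2 to 627 ± 37.5 and 624 ± 29.3 (SD, n = 4). NDUFS7, which holds the last iron-sulfur cluster, rose by 0.29. Core subunits NDUFS3 and NDUFS8 had differences of 0.04 and 0.05 and did not pass the test. GENCODE names 12 pseudogenes of NDUFA5 and 12 of NDUFB4, and how the counting split reads between such copies is not stated.

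Of the 21 nuclear genes of the membrane arm and those not placed in a module, 11 rose and 7 fell, where 70.0% of all genes were called. The B subunits of the membrane arm went both ways. NDUFB5 fell by 0.58, from 1091 ± 63.1 and 1104 ± 30.6 to 743 ± 14.9 and 727 ± 55.7 (SD, n = 4). NDUFB4 fell by 0.38, NDUFB3 by 0.36 and NDUFB6 by 0.26. NDUFB9 rose by 0.47, from 466 ± 38.2 and 573 ± 45.9 to 720 ± 42.9 and 707 ± 29.4, and NDUFB11 rose by 0.35. TATDN1 and MTSS1 overlap NDUFB9 on the other strand, and NDUFB9 also differed between the EV clones by 0.30. NDUFS5 rose by 0.30, NDUFA11 by 0.29 and NDUFA10 by 0.27. NDUFA7 was at 31.5 to 41.8 normalized counts in clone means, and its change of 0.22 had an SE of 0.14 and did not pass.

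**Figure D4:**
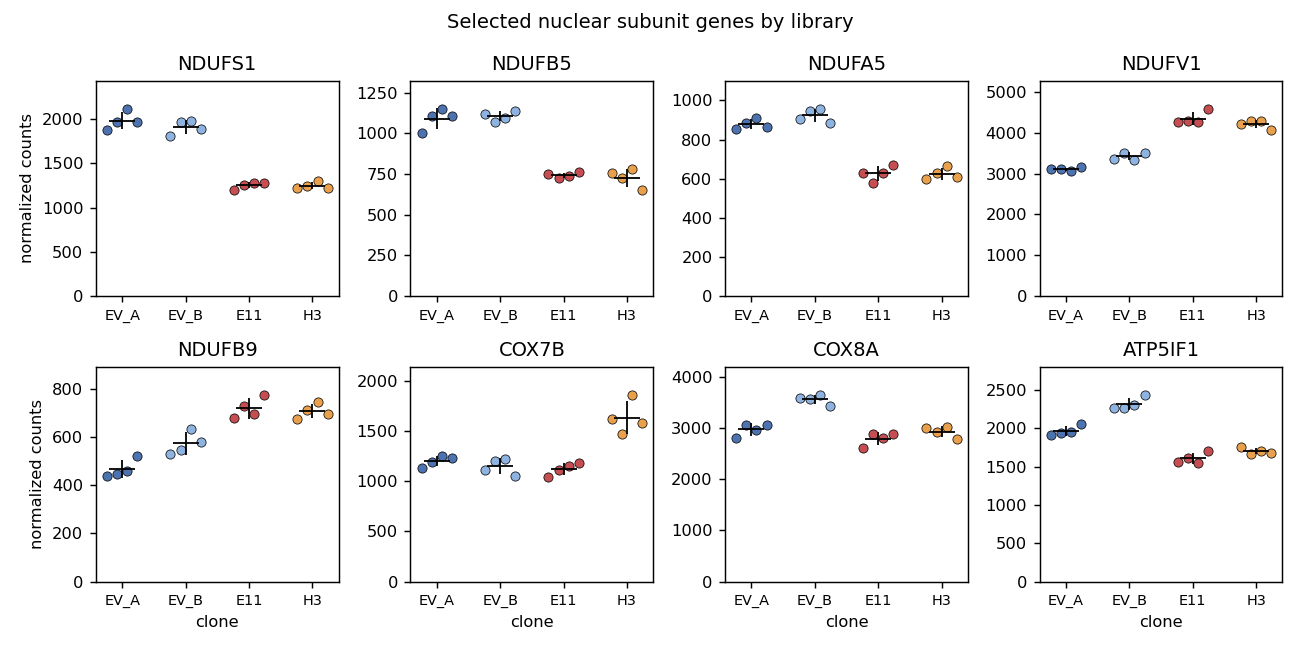
Normalized counts (axes from 0) of 8 nuclear subunit genes in each library, with the clone mean and SD in black. NDUFS1, NDUFB5, NDUFA5 and ATP5IF1 are lower in all TTP libraries, NDUFV1 and NDUFB9 higher, COX7B is raised in TTP_H3, and COX8A is highest in EV_B.

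Complex II, succinate dehydrogenase, is also an enzyme of the TCA cycle and is entirely nuclear. Its flavoprotein SDHA rose, at clone means of 4968 ± 171 and 5001 ± 85.9 in EV_A and EV_B and 5641 ± 151 and 5594 ± 211 in TTP_E11 and TTP_H3 (SD, n = 4), a log2 change of 0.17 with no overlap of the arms. SDHD, one of its membrane anchors, fell by 0.26, from 1652 ± 97.7 and 1737 ± 45.1 to 1420 ± 81.5 and 1406 ± 105, and the arms overlapped in range. Both were called in all 4 single-clone contrasts. The iron-sulfur subunit SDHB had a difference of -0.03 and the other anchor SDHC one of -0.04, neither past the test, and both values were above 0 with the same total per library or after quantile normalization. SDHA has 3 named pseudogenes and SDHD overlaps TIMM8B on the other strand.

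Complex III carries electrons from coenzyme Q to cytochrome c. Of its 9 nuclear genes 4 rose and 1 fell, where 70.0% of all genes were called. UQCRFS1, the Rieske iron-sulfur protein, fell by 0.28, from 1723 ± 46.8 and 1855 ± 30.2 in EV_A and EV_B to 1444 ± 43.2 and 1510 ± 95.4 in TTP_E11 and TTP_H3 (SD, n = 4), and every TTP library was below every EV library. The core proteins UQCRC1 and UQCRC2 rose by 0.13 and 0.09, and the small subunits UQCR11 and UQCRQ by 0.11 and 0.08. Against EV_B alone the change of UQCR11 was 0.09 (limma adjusted p = 0.053). UQCRB, UQCRH and UQCR10 had differences of 0.00 to 0.03 and did not pass. UQCRHL, a gene copied from the UQCRH mRNA, was at 68.8 to 75.5 normalized counts in clone means, and its reads may be shared with UQCRH. The haem subunit CYC1, whose name falls outside the rule, rose by 0.18.

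In complex IV, cytochrome c oxidase, 7 of 12 nuclear genes rose and 3 fell, where 70.0% of all genes were called. The subunit NDUFA4, once counted with complex I, rose by 0.21, and COX6A1 and COX6B1, the isoforms found in most tissues, rose by 0.15 each, and by 0.09 each against EV_B alone. COX4I1, the common isoform of the largest nuclear subunit, had a difference of 0.05 (limma adjusted p = 0.116), and one of 0.13 that passed once all libraries had the same total. COX7A2 fell by 0.10 and COX7A2L, which joins complexes III and IV into supercomplexes, by 0.11. Neither of these passed with EV_A alone as the control or under the other scalings of library totals and quantiles.

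COX8A and COX7B stood out by clone. COX8A was at 2796, 3061, 2962 and 3060 in EV_A, 3583, 3562, 3647 and 3431 in EV_B, 2610, 2879, 2802 and 2877 in TTP_E11, and 2993, 2910, 3014 and 2778 in TTP_H3. Its log2 change of -0.19 between the arms rested on EV_B: against EV_A alone it was -0.06 (limma adjusted p = 0.138). COX7B, at 1135, 1197, 1252 and 1233 in EV_A and 1117, 1208, 1224 and 1059 in EV_B, was at 1046, 1111, 1156 and 1186 in TTP_E11 and at 1623, 1478, 1867 and 1588 in TTP_H3. TTP_H3 was above all other libraries and TTP_E11 was within or below the EV range. COX7B was the only member of 93 called between TTP_H3 and TTP_E11, where 11.7% of all genes were called, with a log2 difference of 0.54 and an SE of 0.06 (limma adjusted p = 3.03e-07). In a fit of 2 arms in place of 4 clones its TTP change of 0.20 did not pass (adjusted p = 0.104). The number called between the TTP clones was 9 without TTP_H3 replicate 3 (2 higher and 7 lower), 4 without EV_B replicate 4, and between 1 and 3 when any other library was left out.

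Complex V, the ATP synthase, was even: 7 of 19 nuclear genes rose and 7 fell, where 70.0% of all genes were called. The catalytic pair of the F1 head parted, with ATP5F1A (alpha) higher by 0.15 and ATP5F1B (beta) lower by 0.22. Clone means of ATP5F1B were 10076 ± 273 and 11401 ± 184 with the empty vector and 8992 ± 167 and 9435 ± 569 with TTP (SD, n = 4), and those of ATP5F1A were 10840 ± 350 and 11151 ± 298, then 12536 ± 388 and 11938 ± 482. The 3 genes that encode the same mature c subunit of the rotor also parted: ATP5MC2 rose by 0.29, ATP5MC1 by 0.25, and ATP5MC3 fell by 0.12. For ATP5MC1 the size depended on the control, with 0.41 against EV_A alone and 0.10 against EV_B alone. The ATP5MC3 change did not pass with libraries set to the same total (-0.04, adjusted p = 0.163) or after quantile normalization (-0.02, adjusted p = 0.632). ATP5PO, the stalk subunit that confers oligomycin sensitivity, rose by 0.26 and the membrane subunit ATP5MG fell by 0.27.

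ATP5IF1 is the inhibitor that blocks the enzyme from running backward and hydrolysing ATP. It was at 1914, 1935, 1948 and 2063 in EV_A, 2271, 2269, 2299 and 2439 in EV_B, 1557, 1618, 1550 and 1701 in TTP_E11, and 1760, 1670, 1709 and 1682 in TTP_H3. Every TTP library was below every EV library, and the log2 change was -0.37 with an SE of 0.03 (limma adjusted p = 2.07e-13). EV_B was above EV_A by 0.24.

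The empty-vector clones differed from each other in this gene group with no TTP plasmid in either. In EV_B versus EV_A 37 of the 93 members were higher and 1, MT-CO2, was lower. The share called was 40.9%, beside 36.8% of all genes, of which 3003 were higher and 2465 lower. Nuclear genes gave 35 of the 37, with a median of 0.10. ATP5MC1 (0.30), NDUFB9 (0.30) and COX8A (0.26) were the highest nuclear genes that passed. No nuclear member was lower in EV_B past the adjusted threshold by limma, edgeR or DESeq2. At an unadjusted p under 0.05, 1 was lower by edgeR and 0 by limma and DESeq2. MT-CO2 was at 65530 ± 3115 in EV_A and 58844 ± 4944 in EV_B (SD, n = 4), and with EV_A alone as control its TTP change was 0.06 (limma adjusted p = 0.291). The median TTP change of the nuclear members was 0.12 against EV_A alone and 0.00 against EV_B alone.

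Against both EV clones together, TTP_E11 had 41 members higher and 22 lower, where 64.6% of all genes were called. TTP_H3 had 40 higher and 21 lower, where 64.7% were. Both comparisons use the same EV libraries. Side by side, NDUFS1 was at -0.64 and -0.64 in TTP_E11 and TTP_H3, NDUFB5 at -0.56 and -0.60, NDUFA5 at -0.53 and -0.53, NDUFV1 at 0.41 and 0.37, and NDUFB9 at 0.48 and 0.45. COX7B was at -0.07 and 0.47.

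**Figure D5:**
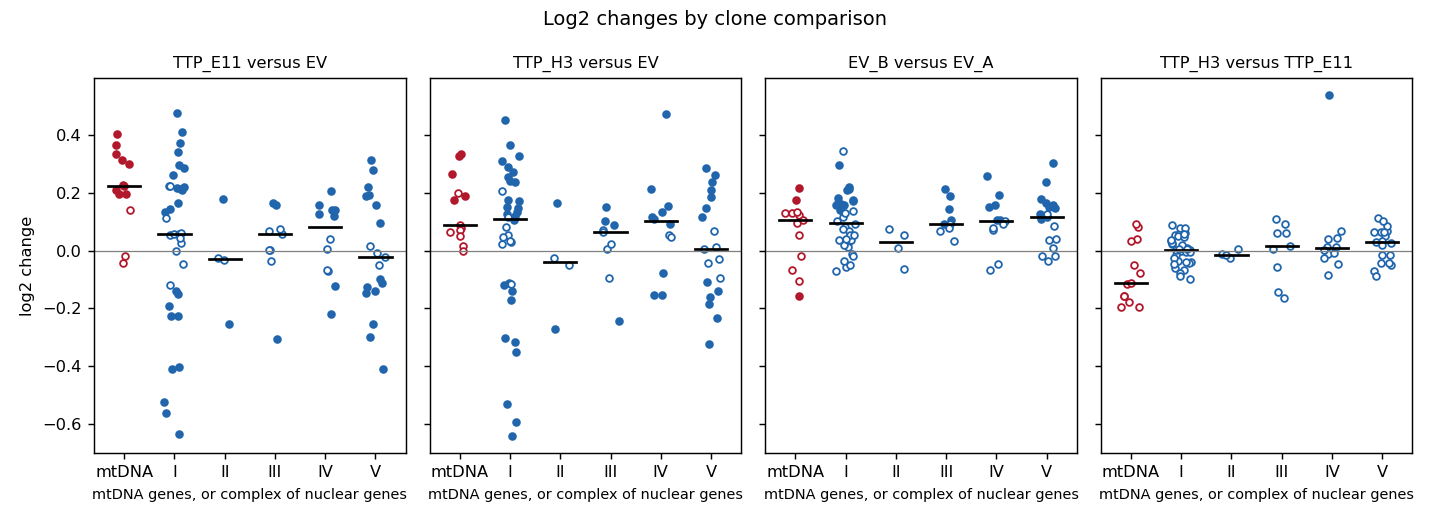
Log2 changes of the members in 4 comparisons, for the mitochondrial genes (mtDNA, red) and the nuclear genes of each complex (blue), filled where the limma adjusted p was under 0.05, with medians as black lines. The nuclear genes spread to both sides of 0 in both TTP clones, lie mostly above 0 in EV_B versus EV_A, and stay near 0 between the TTP clones except COX7B at 0.54.

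The share of members with TATTTAT in the 3′ UTR was 5 of 37 among those that rose, 13.5%, 3 of 23 among those that fell, and 3 of 20 among those not called. Over all listed coding genes it was 22.5% of those that rose and 44.7% of those that fell. The 11 members with the heptamer had a median log2 change of 0.00 and the 69 without it one of 0.06, where all coding genes with and without it had medians of -0.11 and 0.06. NDUFS1 was the only one of the 11 with a change beyond 0.3. It holds 3 copies of the heptamer, while ATP5F1A, which rose by 0.15, holds 4.

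Promoters were compared over the 300 bases from 250 before to 50 after the gene start in RefSeq (GRCh38.p14), which matched 65 of the 80 nuclear members. Motifs of 3 factors known to regulate respiratory genes were searched on both strands. GCGCANGC, the core bound by NRF1, was in 40.0% of the members, 21.6% of the listed genes and 12.5% of all promoters. CCGGAAGT, an ETS site of the kind bound by GABP, was in 15.4%, 8.8% and 4.4%. AAGATGGC, bound by YY1, was in 16.9%, 5.3% and 3.0%. The NRF1 core was in 16 of the 31 matched members that rose and 5 of the 19 that fell, the ETS site in 4 and 5, and the YY1 site in 6 and 1. Of the 15 not called, 5 had the NRF1 core, 1 the ETS site and 4 the YY1 site. The shares of all listed genes were not split by direction. The sequences below are those of the complex II genes that moved apart, SDHA and SDHD, of the member that fell most, NDUFS1, and of the c-subunit gene that rose most, ATP5MC2, picked with their values known. Capitals mark the motifs. In SDHD the NRF1 core reads on both strands and the copies overlap.
SDHA promoter (chr5:218070-218369, plus strand): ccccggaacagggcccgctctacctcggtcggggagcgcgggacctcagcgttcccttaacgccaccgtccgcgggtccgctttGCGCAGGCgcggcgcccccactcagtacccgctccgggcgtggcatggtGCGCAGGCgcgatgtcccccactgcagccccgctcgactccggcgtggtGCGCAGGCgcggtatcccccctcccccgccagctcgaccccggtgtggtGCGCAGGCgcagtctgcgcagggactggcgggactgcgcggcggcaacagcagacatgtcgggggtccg
SDHD promoter (chr11:112086623-112086922, plus strand): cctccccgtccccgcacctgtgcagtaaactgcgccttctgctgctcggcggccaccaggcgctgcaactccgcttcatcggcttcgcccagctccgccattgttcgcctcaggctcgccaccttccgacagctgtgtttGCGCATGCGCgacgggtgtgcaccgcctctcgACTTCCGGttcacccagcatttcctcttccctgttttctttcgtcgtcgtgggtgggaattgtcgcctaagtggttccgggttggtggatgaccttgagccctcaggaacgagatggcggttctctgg
NDUFS1 promoter (chr2:206159395-206159694, minus strand): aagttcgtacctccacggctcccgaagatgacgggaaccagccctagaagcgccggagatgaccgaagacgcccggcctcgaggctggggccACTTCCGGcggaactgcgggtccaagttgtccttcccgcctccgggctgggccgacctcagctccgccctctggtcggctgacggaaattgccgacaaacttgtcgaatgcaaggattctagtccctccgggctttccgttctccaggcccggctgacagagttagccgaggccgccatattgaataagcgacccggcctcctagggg
ATP5MC2 promoter (chr12:53676034-53676333, minus strand): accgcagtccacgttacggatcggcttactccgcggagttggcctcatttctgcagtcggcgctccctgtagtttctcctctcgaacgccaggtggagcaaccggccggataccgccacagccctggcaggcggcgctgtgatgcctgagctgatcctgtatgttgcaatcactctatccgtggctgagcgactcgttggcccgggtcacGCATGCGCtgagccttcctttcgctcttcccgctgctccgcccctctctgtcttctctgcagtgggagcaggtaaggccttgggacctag
Members that rose and members that fell both carry these letters, and occupancy of the motifs was not measured.

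Genes that work with the complexes were counted from lists made with earlier results known, in a comparison in which 70.0% of all genes were called, 5261 higher and 5144 lower. Cytochrome c, encoded by CYCS, which shuttles electrons from complex III to complex IV, fell by 0.76 (limma adjusted p = 1.61e-22), from 3789 and 4615 normalized counts in EV_A and EV_B to 2418 and 2520 in TTP_E11 and TTP_H3. In the list of cytochrome c and coenzyme Q genes 11 of 15 fell and 3 rose, among them COQ10B (-0.67) and COQ8A (1.00), a regulator of coenzyme Q synthesis. Of the TCA cycle genes 9 of 14 fell and 3 rose: DLD, shared by the 2-oxoacid dehydrogenases, fell by 0.43, SUCLG2 by 0.41, and SUCLG1 rose by 0.43. The assembly factors had 22 of 54 higher and 16 lower. CMC1 and COX17, which serve complex IV, the latter by carrying copper, fell by 0.91 and 0.78, and COA7 and TMEM186 rose by 0.56 and 0.50. Among 31 genes of mitochondrial gene expression 15 rose and 4 fell, from TWNK, the helicase of mitochondrial DNA replication, at 1.02, to TFB1M, an rRNA methyltransferase of the mitochondrial ribosome, at -0.26. Of 14 regulators of respiratory genes 5 rose and 7 fell. HIF1A, the oxygen-regulated transcription factor, fell by 0.92 and MYC rose by 0.70. ESRRG rose by 3.81 from EV clone means of 2.74 and 2.54 normalized counts, a level at which the fitted change depends on the pseudocount. Those means lie below 9.68, the smallest mean over all libraries of any listed gene, so ESRRG was listed only through its TTP level. Its rise, counted among the 5, was therefore set by that filter. NDUFAB1, the acyl carrier subunit of complex I outside the naming rule, fell by 0.14.

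The antisense genes NDUFA6-AS1, NDUFB2-AS1 and NDUFV2-AS1 were listed at clone means of 9.8 to 22 normalized counts. None passed in TTP versus EV, with 0.28, -0.24 and -0.70. NDUFV2-AS1 passed in TTP_H3 versus EV at -1.20, from few reads. By the authors' deposited table, 41 members rose and 21 fell (adjusted p under 0.05, as for 63.7% of all genes), and all 62 had the same call and sign in limma.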

How the data were processed

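The authors deposited 1 table with a normalized signal per gene and library, which by its values is the count of reads divided by 1 size factor per library, with the log2 fold change of TTP against EV, its p-value and that value adjusted, per the file headers. Tools named by the submitters' processing notes are STAR 2.5.2b, Trimmomatic 0.36, Subread 1.5.2 with featureCounts, and DESeq2, on build GRCh38, and the settings, annotation and strand use are not given in the sources used here. Dividing by the value of 1 read gave whole numbers for 100% of the values, within 0.001. The smallest mean of a listed gene was 9.68, and less abundant genes are not analysed here. Totals are of reads on listed genes, not the full depth.

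Genes were tested with limma 3.58.1 (R 4.3.3, robust trend) on log2(value + 1), with all 16 libraries in 4 clone groups and Benjamini-Hochberg adjustment over 14857 genes at 0.05. Log2 changes are on that scale and understate genes with few reads. In simulated TTP versus EV data on 14857 genes, limma called 74% of genes changed 1.25-fold and 98% of those changed 1.5-fold. It also called 7 unchanged genes. By the 4 single-clone contrasts 40% and 86% of the changed genes were concordant. The simulated clones did not differ apart from the set change, so these rates do not cover differences between clones. Only 200 genes were changed, none of them with few reads, whereas 70.0% of all genes were called in the data. The adjusted threshold depends on that share, so the rates do not carry over directly. The recovered reads were also tested with DESeq2 1.42.0 and edgeR 4.0.16. Further alternatives were other scalings, pseudocounts, filters, models and controls, a replicate block, and each library left out. The members, the gene lists and the motifs were chosen with earlier results of these data known. Named in full by rule were all mitochondrial members, the isoform pairs, the c-subunit genes, ATP5IF1, the 2 highest and 2 lowest nuclear members of each complex, and the 3 highest and 3 lowest called between clones of an arm. The 2 highest and 2 lowest called genes of each other list are named only in part, with CYC1, NDUFAB1 and CYCS. Other members are named as examples. The values of 1 member are not reported here, though it is in the counts. Gene models and 3′ UTRs are from GENCODE 29, which held 14820 of the listed genes.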

Additional observations from a re-analysis of the deposited data

Results flagged for a closer look

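Of 164 groups of 4 libraries tested for a library apart from the rest of its clone, 17 held one, where chance gives about 1 in 20, or 8.2. The groups share the same libraries, and some values, such as those of MT-ATP6 and MT-ATP8, come from overlapping genes. The flags are therefore not independent, and 17 beside 8.2 is not a test. No cause was tested. For mitochondrial members, EV_A replicate 2 stood above the others of its clone for the share of reads on these genes (3.87%, the others 3.53% to 3.55%), MT-CO3 (72927 normalized counts, the others 66001 to 66573), MT-ND4 (106412, the others 96164 to 96977) and MT-ND5 (35163, the others 32154 to 32654). EV_B replicate 3 was high for MT-ATP6 (92892, the others 83966 to 85392) and MT-ATP8 (25951, the others 23572 to 23907), and EV_B replicate 4 was low for MT-ND5 (29959, the others 32119 to 32182). TTP_E11 replicate 1 was low for MT-CO2 (69123, the others 71353 to 71782) and high for MT-ND6 (10600, the others 10129 to 10155).

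Among nuclear members, TTP_E11 replicate 4 was high for ATP5MC1 (1803, the others 1678 to 1696) and NDUFV1 (4591, the others 4263 to 4286). TTP_H3 replicate 3 was high for COX6A1 (3047, the others 2883 to 2910) and COX7A2L (1745, the others 1543 to 1574). EV_A replicate 4 was high for ATP5MC2 (1118, the others 1053 to 1064). EV_B replicate 4 was low for SDHB (1162, the others 1349 to 1372). SDHC was low in EV_A replicate 1 (1836, the others 1937 to 1956) and high in EV_B replicate 2 (2092, the others 1947 to 1970).

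COX7B differed between TTP_H3 and TTP_E11 by 0.54 on the log2 scale in limma.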

How the results depend on the processing

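Of 1209 values of the 39 fully named members under other settings, 1158 kept their side of the threshold, 35 no longer passed (21 of them with reads summed per clone) and 16 newly passed. The sign turned, or the value went to 0, in 27, all with no call before or after, for MT-CO1, MT-ND5, MT-ND6, SDHB, SDHC and UQCRHL. The value of 0 was that of MT-CO1 after quantile normalization, which leaves no change for any gene of the same rank in every library. After quantile normalization SDHA was at 0.30, MT-ND1 at 0.38, MT-CO3 at 0.15 and ATP5MG at -0.16, all still called, and against EV_B alone UQCRC1 was at 0.08. The number of members called in TTP versus EV, 68, was 18 with reads summed per clone (edgeR) and between 64 and 71 when each library was left out. The concordant count of 32 ran from 30 to 36, that of TTP_E11 from 59 to 64, that of TTP_H3 from 53 to 62 and that of EV_B versus EV_A from 29 to 40. The single call between TTP_H3 and TTP_E11 became 4 with only genes of a mean of at least 50 or with edgeR on recovered reads, 2 with the same total per library or quantile normalization, 3 with DESeq2, 10 without EV_B replicate 4 and TTP_H3 replicate 3 (chosen after seeing the data), and 1 to 9 with each library left out. The median nuclear change of 0.05 was 0.13 with the same total per library, 0.11 after quantile normalization, 0.12 with EV_A alone and 0.0028 with EV_B alone, and ran from 0.04 to 0.06 with libraries left out, the mitochondrial one from 0.13 to 0.19. The cause was not tested. Members with few reads, such as NDUFA7, are limited by depth.

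The replicate numbers did not pair the libraries: 24 correlations between same-numbered libraries of different clones lay between -0.06 and 0.06, and 2 of 16 libraries correlated best with their own number. With the replicate number as a block, 68 members were called in TTP versus EV and 3 between the TTP clones.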
